A study of Rattus norvegicus with 24 samples.

Results

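The choroid plexus genes are a set of 8 named genes, chosen by symbol and described here in every library of the nucleus accumbens (NAc) of male rats. 7 of the 8 names were matched among the 32545 genes measured: Ttr, Folr1, Kl, Clic6, Aqp1, Enpp2 and Prlr. Otx2, the homeobox factor that specifies choroid plexus epithelium, was not matched by name and is not analysed here. Of the 7 genes, 4 reached a mean of 0.5 FPKM over all 24 libraries. FPKM is the number of fragments scaled to a fixed gene length and a fixed library size, so levels given in FPKM are per length.

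The choroid plexus is a vascularised fold of epithelium inside the brain ventricles that secretes cerebrospinal fluid. Its epithelial cells make transthyretin (Ttr), which carries thyroid hormone into that fluid, at very high levels, while neurons and glia of the striatum make little of it. The ventricle wall next to the accumbens is lined by ciliated ependymal cells, and the surface of the brain is covered by leptomeninges rich in fibroblasts. Several of the 7 genes are also made outside the plexus: Enpp2, which encodes autotaxin, is made by oligodendrocytes, and Aqp1, a water channel, is made in vessels and membranes outside the neural tissue.

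Tissue from adult male Sprague Dawley rats, 8 weeks old on arrival, was compared in 6 groups of 4 libraries each, with 1 rat behind each library. In the injection experiment, 5 intraperitoneal injections of 250 µg/kg lipopolysaccharide (LPS, a bacterial immune stimulant) or of saline preceded 5 days of injections of either saline or heroin rising from 1 to 5 mg/kg, and the rats were killed 1 h after the last dose per the labels. The study's methods place a locomotor test between that dose and death and count the time from its end, so the interval is not exact. These rats formed the Saline-Saline controls, the groups given a single agent (LPS-Saline and Saline-Heroin) and the LPS-Heroin group. In the self-administration (SA) experiment, Saline-SA and Heroin-SA rats, which had intravenous catheters and were given no LPS, took saline or 0.075 mg/kg heroin per infusion in 10 daily sessions of 6 h and were killed immediately after the last one. Libraries are named below by group and replicate number.

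Libraries held 12312878 to 18850240 reads on genes. The markers of the dissected region were present throughout: Ppp1r1b (DARPP-32), the signalling protein of medium spiny neurons, lay between 488 and 1452 FPKM. The D1 dopamine receptor gene Drd1, chosen after its values were seen, lay between 41.1 and 103 FPKM. Drd1 was lowest in Saline-Saline 1 (41.1 FPKM) and next lowest in Saline-Saline 4 (45.4 FPKM). Of 15118 genes with a mean of at least 0.5 FPKM, 810 (5.36%) had their highest value in Saline-Saline 1, fewer than in 5 other libraries (up to 11.8%, Saline-SA 4). Genes more than 2-fold above the next library numbered 56 in Saline-Saline 1, 51 in Saline-SA 4 and at most 15 in any other.

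The 250 bases before the annotated start of Ttr and of Aqp1 are shown side by side, from RefSeq (rat build GRCr8). Whether these sequences bear on the levels in the libraries was not tested. Windows were found for 4 of the 8 names. 3 short motifs were searched on both strands in the same window of every RefSeq promoter: TAATCC, the core bound by OTX-type homeobox factors, held by 6.34% of 33469 windows, the forkhead core TGTTTAC (3.21%), and the TATA box TATAAA (12.9%). None of the 3 overlapped another. The search took exact matches only, so variant sites and sites outside the window are missed. The window of Ttr, chr18:12218508-12218757 on the plus strand, is 40.4% G and C and held no exact match to the 3 motifs. The window of Aqp1, chr4:85812534-85812783 on the plus strand, is 65.2% G and C and held the TATA box, printed in capitals, and neither other motif.
Ttr: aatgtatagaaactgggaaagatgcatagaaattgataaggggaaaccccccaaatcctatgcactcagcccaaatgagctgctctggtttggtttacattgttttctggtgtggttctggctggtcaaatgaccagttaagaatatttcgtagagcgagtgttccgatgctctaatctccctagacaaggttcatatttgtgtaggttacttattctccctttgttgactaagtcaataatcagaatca
Aqp1: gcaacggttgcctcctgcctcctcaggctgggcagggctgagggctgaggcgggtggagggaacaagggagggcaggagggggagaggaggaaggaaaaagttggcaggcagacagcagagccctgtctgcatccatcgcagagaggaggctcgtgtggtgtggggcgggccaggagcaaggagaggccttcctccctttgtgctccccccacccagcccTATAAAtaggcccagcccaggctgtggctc

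Ttr (chromosome 18, 15532963 to 15540177 on build rn6) was close to absent from most libraries and very abundant in Saline-Saline 1. Its level was 318, 0.188, 0 and 5.35 FPKM in Saline-Saline 1 to 4, and 0, 0, 0 and 0.311 FPKM in LPS-Saline 1 to 4. In Saline-Heroin 1 to 4 it was 0, 0.625, 0.566 and 0 FPKM, and in LPS-Heroin 1 to 4 it was 0.191, 0.0758, 0 and 24.1 FPKM. Saline-Saline 1 thus exceeded the next library, LPS-Heroin 4, by 13.2-fold, and Saline-Saline 4 was the only other library above 2 FPKM.

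In the SA experiment, Ttr was 0.165, 0, 0.520 and 0.758 FPKM in Saline-SA 1 to 4. In Heroin-SA 1 to 4 it was 0.310, 0.295, 0 and 1.04 FPKM. Every group reached down to 0, so the ranges of all 6 groups overlapped. The 3594 reads in Saline-Saline 1 (exact 95% Poisson interval 308 to 329 FPKM, counting error alone, since reads without molecular tags are not independent molecules) carried 90.2% of the Ttr FPKM summed over all 24 libraries. In 16 libraries Ttr rested on 3 reads or fewer, and 9 had none, where a count of 0 allows between 0.234 and 0.349 FPKM (3 reads).

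Folr1 and Clic6, genes of the plexus epithelium for a folate receptor and a chloride channel, were also highest in Saline-Saline 1. Folr1 was 5.85, 0.127, 0.334 and 0.0655 FPKM in Saline-Saline 1 to 4, and Clic6 was 4.57, 0.145, 0.248 and 0.318 FPKM. These rested on 98 reads of Folr1 and 268 of Clic6 in Saline-Saline 1. The library lay 6.39-fold above the next one for Folr1 and 7.83-fold for Clic6.

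Outside Saline-Saline 1 the order of libraries differed between both genes and Ttr. LPS-Heroin 4 followed for Folr1 at 0.916 FPKM, ahead of Saline-SA 2 at 0.894 FPKM, on 15 and 17 reads, so their counting intervals overlapped. For Clic6, Saline-SA 4 at 0.583 FPKM came before LPS-Heroin 4 at 0.471 FPKM. Saline-SA 2, high in Folr1, had 0 reads of Ttr. Relative to Ttr, Folr1 amounted to 1.84% and Clic6 to 1.43% in Saline-Saline 1, to 3.80% and 1.95% in LPS-Heroin 4, and to 1.23% and 5.95% in Saline-Saline 4, where Folr1 rested on 1 read.

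Over the remaining libraries both genes stayed low. Folr1 ranged from 0 to 0.199 FPKM in LPS-Saline, from 0.241 to 0.508 FPKM in Saline-Heroin and from 0 to 0.576 FPKM in Heroin-SA. Clic6 ranged from 0 to 0.212 FPKM in LPS-Saline, from 0.0671 to 0.272 FPKM in Saline-Heroin and from 0.0199 to 0.219 FPKM in Heroin-SA. 13 of the 24 libraries held 3 reads of Folr1 or fewer, and 8 held 3 or fewer of Clic6.

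Kl and Prlr also had their maximum in Saline-Saline 1, but with a much smaller margin. Kl, which encodes the FGF23 co-receptor klotho and is also made by neurons, was 1.83, 0.241, 0.849 and 0.639 FPKM in Saline-Saline 1 to 4. The highest value lay 1.56-fold above LPS-Saline 3 at 1.17 FPKM, and Heroin-SA 2 followed at 1.15 FPKM. The lowest value of all 24 libraries, 0.241 FPKM, was in the same group, Saline-Saline 2, so the spread within Saline-Saline covered every other group.

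Prlr, the prolactin receptor gene, was the lowest of the 7, with a median of 0.0566 FPKM and at most 23 reads in a library. It was 0.481, 0.133, 0.0700 and 0.138 FPKM in Saline-Saline 1 to 4. LPS-Saline 3 and Saline-Heroin 2 followed Saline-Saline 1 at 0.338 and 0.337 FPKM, on 13 and 16 reads. LPS-Heroin 4, the library next in Ttr, had 0 reads of Prlr, which allows up to 0.0641 FPKM.

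**Figure D1:**
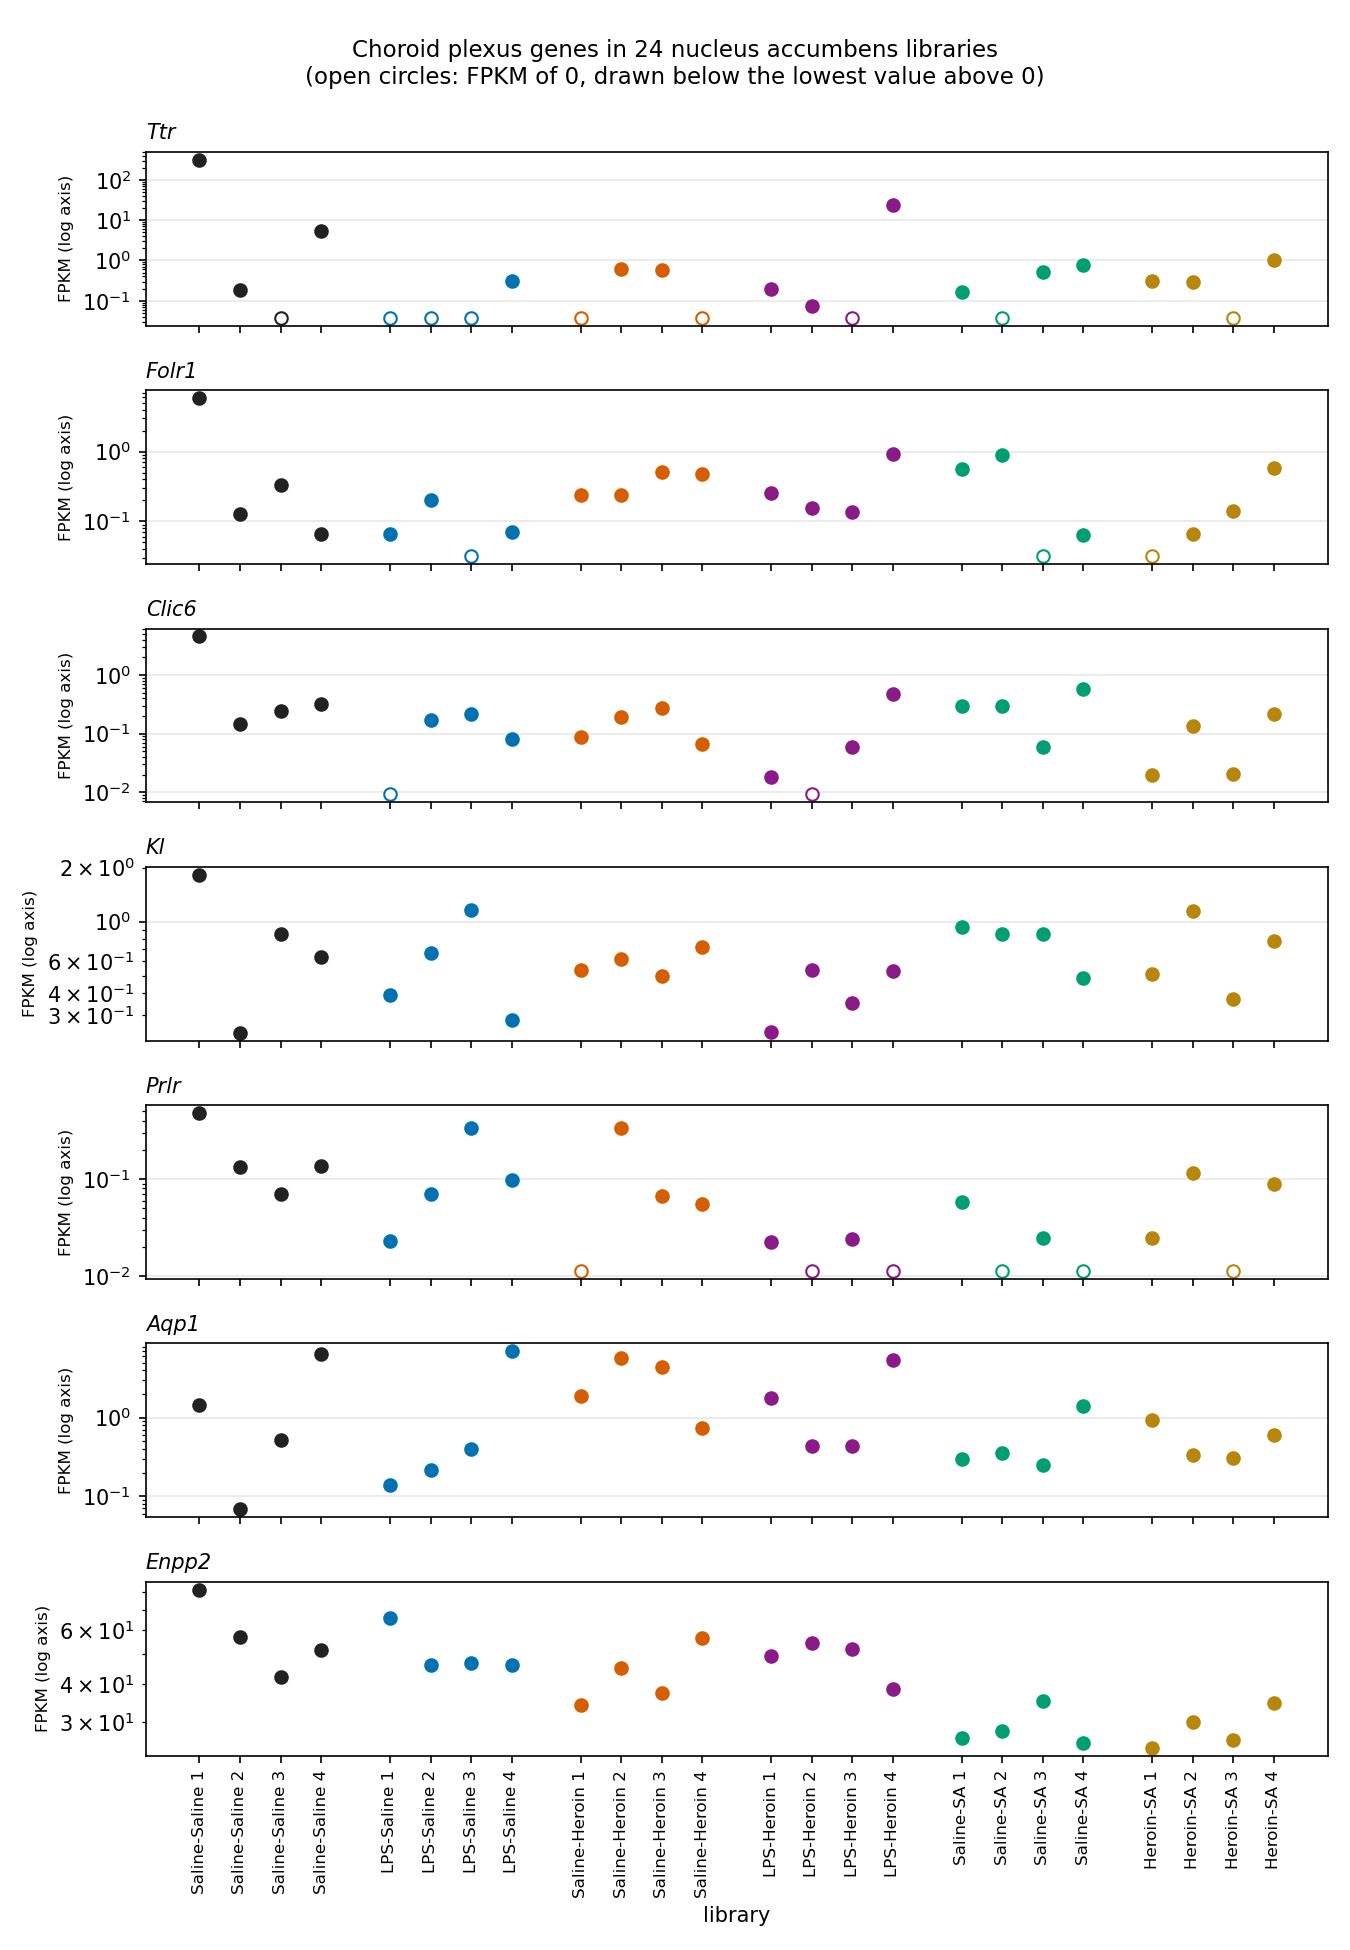
FPKM of the 7 genes (rows, log axes with their own range) in each of the 24 libraries, coloured by group, with values of 0 drawn as open circles below the lowest value above 0. Saline-Saline 1 is the highest library for Ttr (318 FPKM), Folr1, Clic6, Kl, Prlr and Enpp2, while Aqp1 is highest in LPS-Saline 4 (6.94 FPKM).

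Aqp1 followed a different set of libraries. It was 1.46, 0.0683, 0.526 and 6.44 FPKM in Saline-Saline 1 to 4, and 0.140, 0.214, 0.400 and 6.94 FPKM in LPS-Saline 1 to 4. In Saline-Heroin 1 to 4 it was 1.90, 5.80, 4.44 and 0.731 FPKM, and in LPS-Heroin 1 to 4 it was 1.75, 0.440, 0.441 and 5.45 FPKM. 5 libraries exceeded 4 FPKM, all of them from the injection experiment, and the next was at 1.90 FPKM. Saline-SA ranged from 0.251 to 1.42 FPKM and Heroin-SA from 0.308 to 0.925 FPKM.

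Those 5 libraries were the same 5 that held the highest mean level of the leptomeninges and fibroblasts list, 11 genes including Ptgds (prostaglandin D synthase), Dcn (decorin) and Col1a1 (collagen). Ptgds reached 2133 FPKM in LPS-Saline 4 and 1528 FPKM in Saline-Heroin 3 against a median of 324 FPKM. Of the 11 genes, 9 were highest in LPS-Saline 4 and 0 in Saline-Saline 1. The summed level of the list ran from 222 to 2224 FPKM and was 371 FPKM in Saline-Saline 1, above the median of 345 FPKM. Its mean log2 level was 1.03 in Saline-Saline 1, below the median library at 1.39.

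Enpp2 was the 1 gene of the 7 that was abundant in every library, from 24.8 to 81.2 FPKM and on at least 908 reads. It was 81.2, 56.9, 42.3 and 51.5 FPKM in Saline-Saline 1 to 4, and 65.9, 46.3, 47.0 and 46.3 FPKM in LPS-Saline 1 to 4. In Saline-Heroin 1 to 4 it was 34.2, 45.0, 37.4 and 56.5 FPKM, and in LPS-Heroin 1 to 4 it was 49.4, 54.3, 52.0 and 38.7 FPKM. Saline-Saline 1 was the highest, 1.23-fold above LPS-Saline 1, and the ranges of the 4 groups overlapped.

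The 5 libraries highest in Enpp2 shared 4 with the 5 highest in the oligodendrocyte list (myelin genes such as Mbp and Cnp). In the SA experiment Enpp2 was lower, 26.7, 28.1, 35.3 and 25.7 FPKM in Saline-SA 1 to 4 and 24.8, 30.2, 26.3 and 34.8 FPKM in Heroin-SA 1 to 4. 15 of the 16 injection libraries lay above all 8 SA libraries. The myelin gene Mbp had 4 of 16 injection libraries above the SA range of 2037 to 2582 FPKM, and the mean level of the oligodendrocyte list had 8 of 16 above its SA range. The experiments differed in handling, route and time of death, and these cannot be told apart, so no test was made between them.

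**Figure D2:**
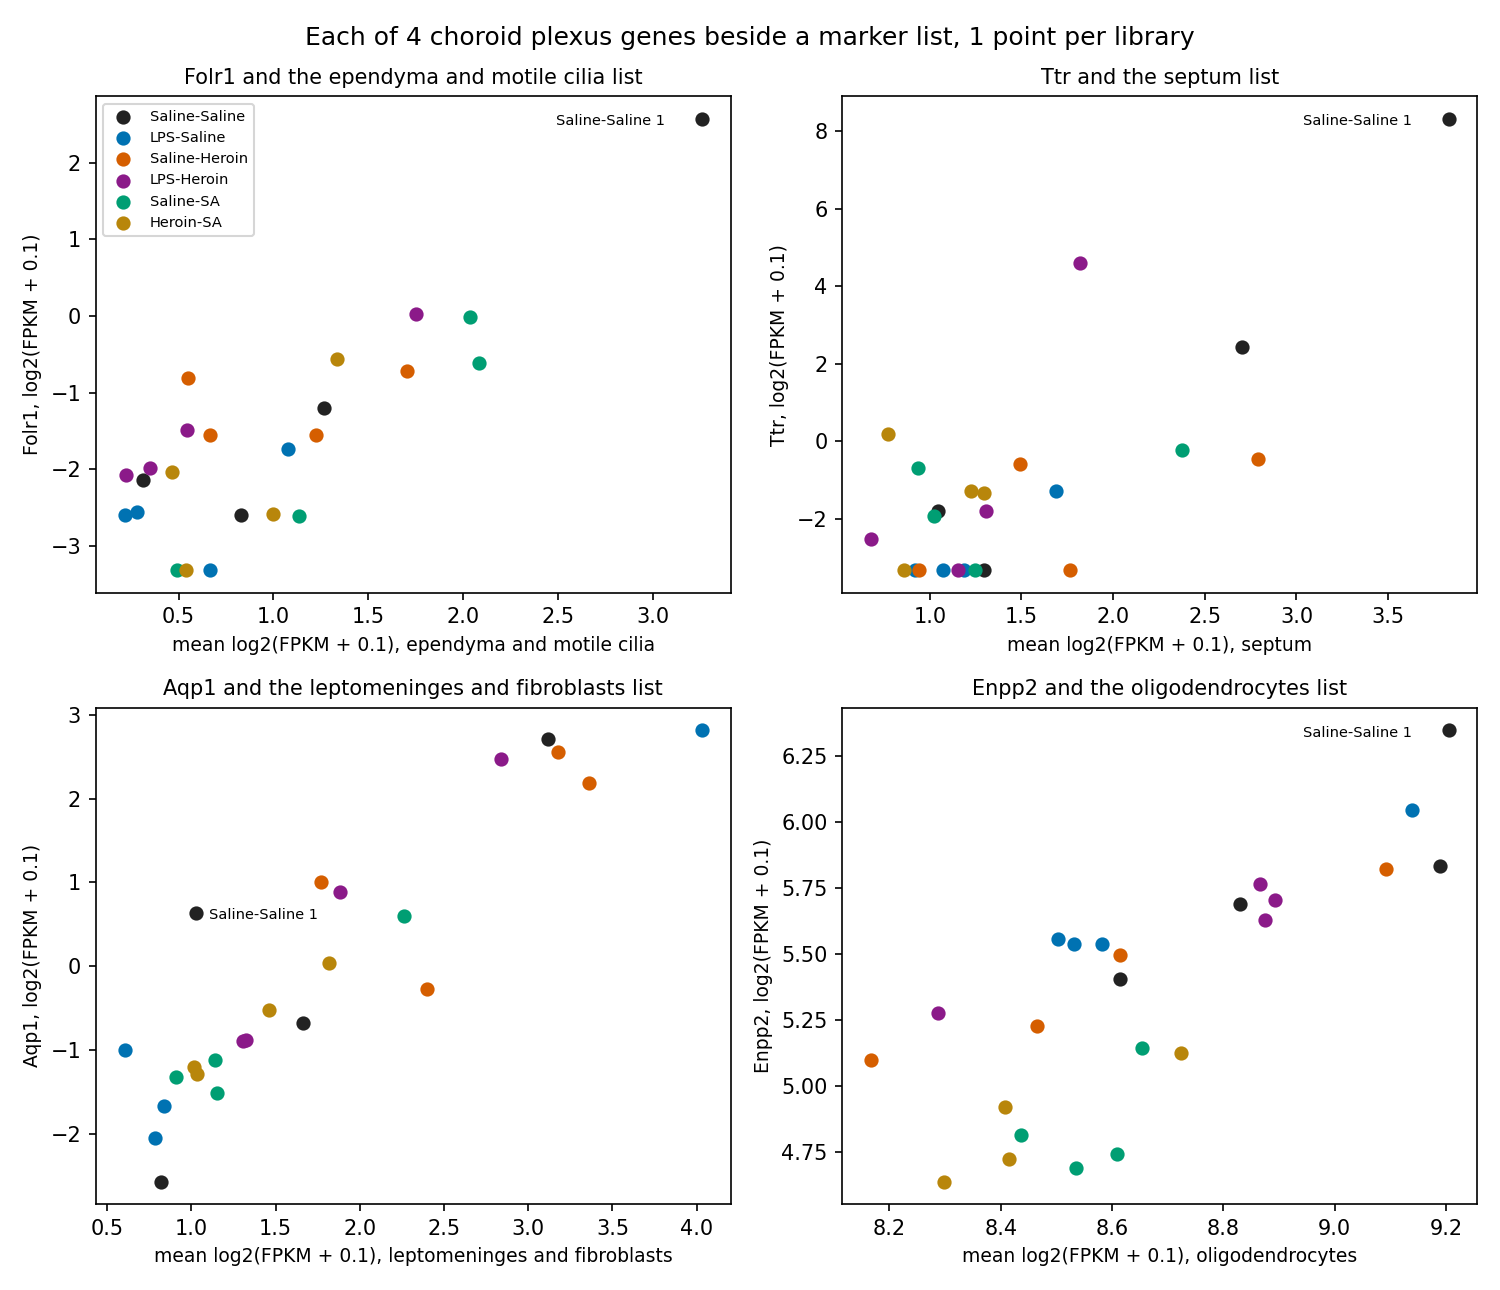
Level of Folr1, Ttr, Aqp1 and Enpp2 (vertical axes, log2(FPKM + 0.1)) against the mean log2 level of a marker list (horizontal axes), with 1 point per library coloured by group. Saline-Saline 1 lies at the upper right for Folr1 with the cilia list, Ttr with the septum list and Enpp2 with the oligodendrocyte list, while it is at 1.03 on the leptomeninges axis, below the median library.

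Other genes of the plexus, its lining and neighbouring regions were read beside the 7. Of 18 ependyma and motile cilia genes matched, 16 were highest in Saline-Saline 1, among them Tppp3 (57.9 FPKM, median 31.1) and Enkur (13.5 FPKM, median 8.29), while Rarres2 was highest in LPS-Saline 4. Of the 14 with a mean of at least 0.5 FPKM, 13 were highest in Saline-Saline 1, but that mean includes Saline-Saline 1 itself. The summed level of that list was 183 FPKM in Saline-Saline 1 and 110 FPKM in the next library, Saline-SA 1. Saline-SA 1 and Saline-SA 2, next in mean log2 level of the cilia list at 2.09 and 2.04, held 2 and 0 reads of Ttr, so a high level of cilia genes occurred without Ttr.

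All 5 septum genes matched were highest in Saline-Saline 1, including the Zic transcription factor genes Zic1 (57.7 FPKM, next 31.4 in Saline-Saline 4) and Zic2 (22.1 FPKM, next 9.88 in Saline-Saline 4). Ttr and Clic6 each shared 4 of their 5 highest libraries with that list. The medium spiny neuron list had a mean log2 level of 6.58 in Saline-Saline 1 and 6.54 in Saline-Saline 4, the lowest of all libraries, against a median of 7.15. LPS-Heroin 1, with 0.191 FPKM of Ttr, was next at 6.60. Its summed level, 1439 FPKM, was below the 1441 FPKM of Saline-Saline 1, so a low level of this list also occurred with little Ttr. Bulk tissue cannot tell fewer cells of a type from less RNA per cell, and the part of neighbouring tissue in the level of the 7 genes was not tested.

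The 35 other choroid plexus genes matched did not share 1 high library: 16 were highest in Saline-Saline 1 and 7 in LPS-Saline 4. The mean over libraries includes Saline-Saline 1, so a gene can reach 0.5 FPKM through its value there. Of the 19 genes with a mean of at least 0.5 FPKM, 7 were highest in Saline-Saline 1, against 5.36% of all such genes. Those more than 2-fold above the next library in Saline-Saline 1 numbered 8 of the 35, led by Mfrp (3.19 FPKM, 9.24-fold), Sostdc1 (3.31 FPKM, 8.90-fold), F5 (0.834 FPKM, 6.18-fold) and the tight junction gene Cldn2 (0.571 FPKM, 5.57-fold), named after their values were seen. Each of these named genes had a mean below 0.5 FPKM over the libraries. Igf2, Igfbp2, Slc13a4 and the potassium channel gene Kcnj13 were highest in LPS-Saline 4 instead (also named after their values were seen), Igfbp2 at 125 FPKM against 18.5 FPKM in Saline-Saline 1. LPS-Saline 4 was also the highest library of the leptomeninges and fibroblasts list (mean log2 level 4.03) and held 0.311 FPKM of Ttr. The 3 most abundant genes of the list, Atp1b1, Bsg and Htr2c, which neurons also make, varied little, from 477 to 788, 288 to 388 and 50.7 to 82.6 FPKM. The oligodendrocyte list had 2 of 6 genes highest in Saline-Saline 1, where its mean log2 level was also highest (9.20, next 9.19 in Saline-Saline 2). The remaining lists (dividing cells and neuroblasts, vessels, red blood cells, cortical neurons) had at most 1 gene highest in Saline-Saline 1.

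After the group means were taken out, the 7 genes split between marker lists. Pearson's r over 24 libraries is given as a description, without a p, since every point shares its library's depth and tissue piece. Folr1 went with the cilia list (r = 0.88, and 0.77 without Saline-Saline 1), as did Clic6 (0.86 and 0.73). Aqp1 went as closely with the other choroid plexus list (0.89 and 0.92) as with the leptomeninges list (0.89 and 0.92), with Spearman's rho of 0.92 and 0.75 over 24 libraries. Both lists had their highest mean level in LPS-Saline 4, so these values of r are not independent. Over the 19 libraries below 4 FPKM of Aqp1, r with the leptomeninges list was 0.56. Enpp2 went with the oligodendrocyte list (0.88 and 0.91).

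Ttr kept its r with the other choroid plexus list when Saline-Saline 1 was left out (0.71 and 0.69), while its r with other lists moved. Its r was 0.61 with the cilia list and 0.38 with the leptomeninges list over all libraries, and 0.29 and 0.68 without Saline-Saline 1. With the septum list it was 0.78 and 0.63. Among the 7 genes, 21 pairs had a median r of 0.38, which was 0.14 without Saline-Saline 1, and the pair of Ttr and Folr1 went from 0.50 to 0.08.

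**Figure D3:**
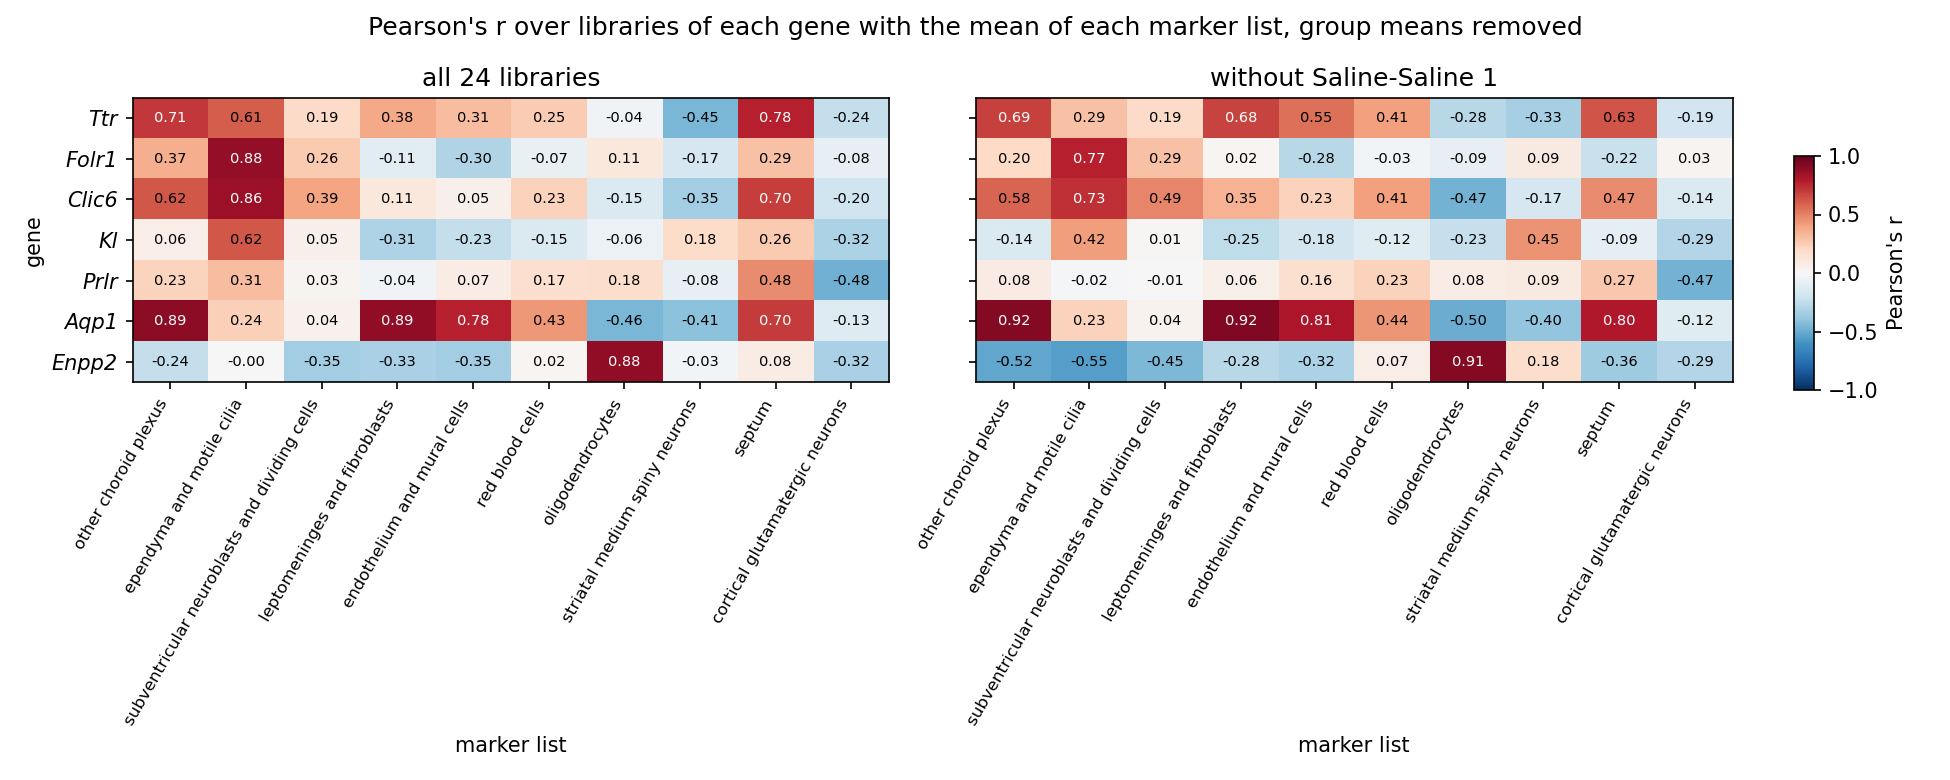
Pearson's r over libraries between each of the 7 genes (rows) and the mean log2(FPKM + 0.1) of each marker list (columns), after removal of group means, over all 24 libraries (left) and without Saline-Saline 1 (right). Folr1 and Clic6 are strongest with the ependyma and motile cilia list, Aqp1 with the leptomeninges and other choroid plexus lists and Enpp2 with the oligodendrocyte list (0.88 and 0.91).

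Among 13394 other genes with a symbol, those most like the mean of the 7 genes included Zic2 (r = 0.85), Vangl1 (0.84), Dmc1 (0.83), Col4a5 (0.83), Ttc21a (0.82), Lrrc71 (0.82), Col6a3 (0.82), Gpc3 (0.79) and Gja1 (0.79), over 24 libraries with group means removed. Spearman's rho for these genes ran from 0.60 (Lrrc71) to 0.86 (Col4a5). Without Saline-Saline 1 and LPS-Heroin 4, the libraries farthest from the median, r fell to 0.42 for Lrrc71 and 0.51 for Ttc21a, and was 0.84 for Col4a5 and 0.83 for Vangl1. Col4a5 encodes a chain of basement membrane collagen and Vangl1 a planar cell polarity protein.

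Whether LPS, heroin or their combination moved these genes was tested for 6 pairs of groups. Genes with a mean of at least 0.5 FPKM over the 8 libraries were fitted with limma on log2(FPKM + 0.1), and a gene was called at an unadjusted p of at most 0.05 with a change of at least 1.3-fold. Against Saline-Saline, 0 of the 6 genes tested were called in LPS-Saline, where 2.37% of 15119 genes were called, 0 of 6 in Saline-Heroin (3.07% of 15143) and 0 of 6 in LPS-Heroin (5.43% of 15134). In LPS-Heroin, 0 of 4 were called against LPS-Saline (2.29% of 15069) and 0 of 4 against Saline-Heroin (2.20% of 15121). In Heroin-SA, 0 of 3 were called against Saline-SA (5.45% of 15024). Limma-voom on the recovered reads also called 0 in each, and the smallest unadjusted p of a gene tested was 0.0861 in limma. Among the genes that passed the filter, 0 reached an adjusted p of 0.05 in limma in each of the 6 comparisons, and 637 to 1725 had an unadjusted p below 0.05. Without the filter, 7 genes did so in LPS-Saline and 5 in Saline-Heroin against Saline-Saline and 1 in LPS-Heroin against Saline-Heroin, and 78 did so in Heroin-SA when all 24 libraries were fitted together.

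Ttr had the widest differences and the widest errors. Its mean was 81.0 ± 158 FPKM (SD, n = 4) in Saline-Saline and 0.0777 ± 0.155 FPKM in LPS-Saline. The groups given heroin had means of 0.298 ± 0.344 FPKM (Saline-Heroin) and 6.09 ± 12.0 FPKM (LPS-Heroin). On the log2(FPKM + 0.1) scale, which understates changes of low genes, it was lower than Saline-Saline by 4.22 in LPS-Saline (SE 2.19, adjusted p = 0.757 in limma), with a 95% interval from -9.18 to 0.74. The 4 libraries of LPS-Saline together held 3 reads of Ttr, so the size of this difference depends on the value added before the logarithm. The differences were -3.34 in Saline-Heroin (SE 2.25) and -2.16 in LPS-Heroin (SE 2.60), with adjusted p of 0.793 and 0.807 in limma. Without Saline-Saline 1 the differences were -1.92 after LPS, -1.03 after heroin and 0.14 after both.

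The other genes highest in Saline-Saline 1 moved in the same way when it was left out. Clic6 differed from Saline-Saline by -1.69 after LPS, -1.41 after heroin and -1.82 after both, and by -0.74, -0.45 and -0.86 without Saline-Saline 1. Folr1 differed by -1.71, -0.32 and -0.54, and by -0.57, 0.82 and 0.60 without it. Both fell below the filter on level once that library was left out, so those values carry no test.

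**Figure D4:**
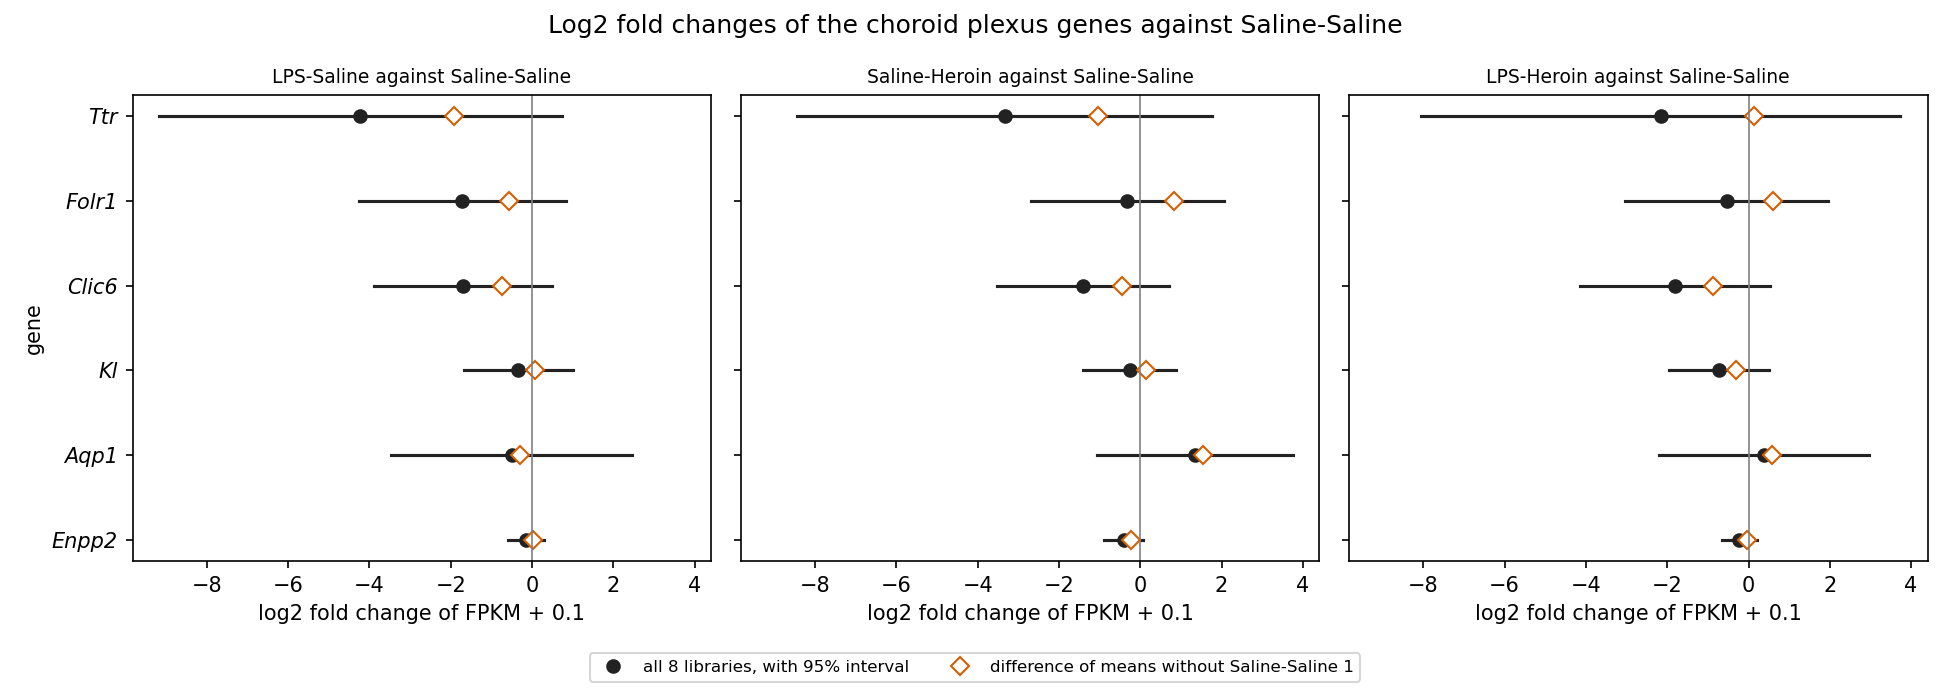
Log2 fold change of FPKM + 0.1 for 6 genes (rows) in each of the other injection groups against Saline-Saline (panels), with filled points and bars for the limma estimate and its 95% interval over 8 libraries and open diamonds for the difference of means without Saline-Saline 1. Every interval includes 0, and the diamond for Ttr moves from -4.22 to -1.92 in LPS-Saline.

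Enpp2 had the narrowest errors. Its mean was 58.0 ± 16.6 FPKM (SD, n = 4) in Saline-Saline and 51.4 ± 9.68 FPKM in LPS-Saline. The groups given heroin had means of 43.3 ± 9.90 FPKM (Saline-Heroin) and 48.6 ± 6.92 FPKM (LPS-Heroin). It differed from Saline-Saline by -0.41 on the log2 scale in Saline-Heroin (95% interval -0.89 to 0.07, adjusted p = 0.753 in limma). That difference was called when Saline-Heroin 4 (-0.54) or Saline-Saline 3 (-0.54) was left out, and was -0.23 and not called without Saline-Saline 1. Between Heroin-SA (29.0 ± 4.45 FPKM) and Saline-SA (28.9 ± 4.34 FPKM) it differed by 0.00 (95% interval -0.29 to 0.30), so a change of Enpp2 beyond 0.30 on this scale lay outside the interval.

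Aqp1 and Kl did not separate the groups either. Aqp1 was 2.12 ± 2.93 FPKM in Saline-Saline and 3.22 ± 2.32 in Saline-Heroin (n = 4 each), a log2 difference of 1.34 (95% interval -1.07 to 3.76) that was called when Saline-Saline 4 was left out (2.24). Against LPS-Saline, LPS-Heroin was called higher in Aqp1 when LPS-Saline 4 was left out (1.97, against 0.87 with it). Kl was 0.889 ± 0.675 FPKM in Saline-Saline and 0.416 ± 0.144 in LPS-Heroin, a difference of -0.72 (95% interval -1.95 to 0.51) that was called without Saline-Saline 2 (-1.14) and was -0.31 without Saline-Saline 1, where Kl fell below the filter.

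Prlr did not reach the filter in any comparison. In LPS-Heroin it was 0.0225, 0, 0.0239 and 0 FPKM, below all 4 Saline-Saline libraries, on 2 reads against 38. The 2 groups had no overlap (exact permutation test, two-sided, p = 0.0286, the smallest that 4 against 4 libraries allow), as was true of 6.86% of the 15134 genes tested in that comparison. Prlr, below the filter, is not among those genes, so that share is no background for a gene on so few reads. Without the filter Prlr was called in LPS-Heroin against Saline-Saline (log2 difference -1.29, adjusted p = 0.328 in limma, and -0.93 without Saline-Saline 1) and against LPS-Saline (-0.89, adjusted p = 0.946 in limma), where the groups overlapped and 21 reads stood against 2. Of all genes, 1073 of 21216 and 548 of 21111 were called without the filter in these 2 comparisons.

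The effect of heroin after LPS was also set against its effect after saline. 0 of 5 genes tested had a called difference of effects (2.31% of 15113 genes were called). For Ttr that difference was 5.39 on the log2 scale (95% interval -0.98 to 11.8, adjusted p = 0.992 in limma), and it was called at 6.97 when Saline-Saline 3, with 0 Ttr reads, was left out. Without Saline-Saline 1 it was 3.09 and not called.

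In the other choroid plexus list, 17 to 23 of 35 genes were tested per comparison. A single gene was called lower in Saline-Heroin (1 of 23, against 1.67% of all genes called lower), LPS-Heroin (1 of 22, against 2.44%) and Heroin-SA (1 of 17, against 2.41%) relative to their saline groups, and 0 were called in the other 3 comparisons, so the counts are near the background. That gene was Slc29a4, which encodes a plasma membrane monoamine transporter. It was 7.08 ± 1.16 FPKM in Saline-Saline and lower in Saline-Heroin at 4.99 ± 1.46 (log2 difference -0.53, adjusted p = 0.750 in limma) and in LPS-Heroin at 4.03 ± 1.01 (-0.81, adjusted p = 0.191 in limma). It was also lower in Heroin-SA (4.46 ± 0.397 FPKM) than in Saline-SA (8.07 ± 2.36 FPKM; -0.80, adjusted p = 0.295 in limma). The comparisons with Saline-Saline share those 4 libraries. Slc29a4 was highest in Saline-SA 4 (11.1 FPKM) and was 6.21 FPKM in Saline-Saline 1, and without that library the differences in Saline-Heroin and LPS-Heroin were -0.58 and -0.87.

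The ependyma and motile cilia list held 1 gene called lower after LPS, 1 after heroin, 2 after both and 3 in Heroin-SA against their saline groups, of 15, 15, 15 and 13 tested, and 0 called higher. Tppp3, a tubulin-binding protein gene, was among them in each of the 4 comparisons, with log2 differences of -0.46, -0.59, -0.49 and -0.59. Without Saline-Saline 1 the first 3 of these were -0.29, -0.42 and -0.32, a check added after the data were seen and given with no test. The Heroin-SA differences had no such check. Their control libraries also varied, with a mean log2 level of the cilia list of 2.09, 2.04, 0.49 and 1.13 in Saline-SA 1 to 4. In the leptomeninges and fibroblasts list, 2 of 10 genes were called higher in Saline-Heroin than in Saline-Saline, Col1a1 (1.20, and 1.03 without Saline-Saline 1) and Islr (1.22 and 1.13, named after its values were seen). Saline-Saline 1 was below the median library in mean log2 level of that list, though not in summed level, so leaving it out is a weak check. Saline-Heroin 2 and 3, high in the list at a mean log2 level of 3.17 and 3.36 (1.77 and 2.40 in Saline-Heroin 1 and 4), were not left out for these genes. The shares of all genes called lower in the 4 comparisons of the cilia list were 1.16%, 1.67%, 2.44% and 2.41%, and 1.40% were called higher in Saline-Heroin.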

How the data were processed

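Reads of poly-A selected, directional libraries made from 300 ng RNA (RIN of at least 7) were, per the labels' processing notes, trimmed with fastp, aligned to rn6 with HISAT2 and counted with featureCounts; versions and the strand setting are not given in the sources used here. The authors deposited FPKM, fragments per length of gene and per library size, for 24 libraries and 32545 genes. The paper's methods state more rats per group than the 4 held here. Because FPKM times gene length was a whole multiple of 1 read's worth for 100% of values (tolerance 0.01, tested below 3000 reads), read counts and depth were recovered. The library size implied by the FPKM was 0.940 (Saline-SA 3) to 1.05 (Saline-Saline 1) times the recovered reads on genes, so it was not their plain total.

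The 8 genes, marker lists and named genes were chosen with earlier results of these data known. Apart from genes marked as named after their values were seen, genes named in the text are the 8, the 10 most alike, the 3 most abundant of each marker list and called genes of the other choroid plexus list. Some genes that this rule names are not reported here. Groups came from the labels. FPKM were analysed as log2(FPKM + 0.1) with limma 3.58.1 (trend; R 4.3.3), with Benjamini-Hochberg adjustment over all genes, and checked on simulated data. Exact permutation tests were two-sided. Alternatives were a pseudocount of 1, no filter, quantile normalization, 1 fit of all 24 libraries, a replicate block, limma-voom on recovered reads, and each library left out. Replicate numbers did not mark shared animals. Intervals of counts were computed with scipy 1.17.1.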

Additional observations from a re-analysis of the deposited data

Results flagged for a closer look

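In 11 of 42 sets of 4 libraries (7 genes in 6 groups), the highest library stood far from the other 3 of its group by Dixon's criterion. For independent, normally distributed values about 1 of 20 sets, or about 2.1 of 42, would meet it. FPKM near 0 are skewed and sets of different genes share libraries, so the 11 cannot be compared with that number. Saline-Saline 1 stood far above its group for Ttr (318 FPKM, next 5.35), Folr1 (5.85 FPKM, next 0.334), Clic6 (4.57 FPKM, next 0.318) and Prlr (0.481 FPKM, next 0.138). LPS-Heroin 4 did so for Ttr (24.1 FPKM, next 0.191), Folr1 (0.916 FPKM, next 0.257) and Clic6 (0.471 FPKM, next 0.0585). LPS-Saline 4 was far above its group for Aqp1 (6.94 FPKM, next 0.400) and, on 3 reads, for Ttr (0.311 FPKM against 0 in the other libraries). Saline-SA 4 was far above its group for Aqp1 (1.42 FPKM, next 0.358), and LPS-Saline 1 for Enpp2 (65.9 FPKM, next 47.0).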

How the results depend on the processing

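Counts of called genes moved with few settings. A fit of all 24 libraries called 2 of 6 genes in LPS-Saline against Saline-Saline (Ttr and Clic6), where 339 of 15119 genes were called. It called 1 of 6 in Saline-Heroin (Enpp2, 445 of 15143 genes) and 1 of 6 in LPS-Heroin (Clic6, 723 of 15134). Without Saline-Saline 1, Clic6 averaged 0.237 FPKM in Saline-Saline and fell below the filter. Ttr then differed by -1.92 in LPS-Saline, so the calls of both genes lean on that library. No filter called Prlr, 1 of 7 genes, in LPS-Heroin against Saline-Saline (1073 of 21216 genes) and against LPS-Saline (548 of 21111). With each library left out, 0 to 1 genes were called in LPS-Saline, 0 to 2 in Saline-Heroin and 0 to 1 in LPS-Heroin against Saline-Saline, 0 to 1 in LPS-Heroin against LPS-Saline and 0 to 1 for the difference of heroin effects. Of all genes (at least 15016 tested), 310 to 625, 366 to 727, 664 to 988 and 295 to 428 were called in the first 4 of these. Ttr was called without Saline-Saline 3 in LPS-Saline (-5.80) and Saline-Heroin (-4.91). Of the 10 genes most like the mean, 5 were shared with a pseudocount of 1, 4 by Spearman's rho, 3 with group means kept and 2 without the 2 farthest libraries, a setting chosen after seeing the data. The cause was not tested. Of 196 summary values 180 stayed, and of 490 single-gene values 449 stayed, 29 changed sign and 12 became called.

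Sign changes were in differences that were not called. Over libraries left out, against Saline-Saline, LPS-Saline ranged from -1.60 to 0.39 for Aqp1, -0.76 to 0.074 for Kl and -0.29 to 0.026 for Enpp2, Saline-Heroin from -0.68 to 0.15 for Kl, and LPS-Heroin from -0.49 to 1.27 for Aqp1, -3.95 to 0.14 for Ttr and -0.36 to -0.049 for Enpp2. LPS-Heroin against LPS-Saline ranged from -0.13 to 0.051 for Enpp2. Heroin-SA against Saline-SA ranged from -0.17 to 0.27 for Aqp1, -0.087 to 0.10 for Enpp2 and -0.45 to 0.024 for Kl. The difference of heroin effects ranged from -0.54 to 0.30 for Kl and -1.36 to 0.63 for Aqp1. Quantile normalization gave -0.013 for Enpp2 in Heroin-SA, and a pseudocount of 1 gave 0.0060 for the Kl difference of effects. Without both Saline-Saline 1 and LPS-Heroin 4, chosen after seeing the data, LPS-Heroin against Saline-Saline was -0.12 for Aqp1 and 0.057 for Enpp2.

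Libraries with the same replicate number did not deviate together (r from -0.13 to 0.17 over 24 pairs, 3 over 0.1, 7 best with their own number). With the replicate block 0 genes were called in each comparison. Depth limits Ttr, Folr1 and Prlr, with 3 reads or fewer in 16, 13 and 16 libraries.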

Other observations

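The 100 genes most like the mean of the choroid plexus genes over libraries held 6 of 14 ependyma and motile cilia genes compared, 3 of 5 septum genes and 2 of 19 other choroid plexus genes. The median r of the cilia list was 0.63 over 24 libraries and 0.17 without Saline-Saline 1 and LPS-Heroin 4, while that of the leptomeninges list was 0.34 and 0.62. Over all genes compared the median r was 0.0026 with all libraries.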
